A study of Rattus norvegicus with 10 samples.

Results

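Of the 1924 long noncoding RNAs (lncRNAs) that were newly assembled from rat brain RNA sequencing, 653 lay in loci that held between 2 and 5 of them. A locus here is a set of assembled lncRNA transcripts whose spans overlap on the same chromosome and strand, directly or through others, and each transcript of a locus is called an isoform. The 1924 transcripts formed 676 loci, of which 227 held 2 to 5 transcripts, and these 227 loci with their 653 transcripts are described below. The other transcripts were 358 that lay alone in their locus and 913 that lay in 91 loci of 6 or more. A locus is named by the transcript with the highest mean level in it, and each transcript keeps its assembly name, which begins with TCONS.

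The libraries came from male Sprague Dawley rats, an outbred strain, 24 hours after middle cerebral artery occlusion (MCAO), in which a suture closed the artery for 2 hours and was then withdrawn. Both hemispheres of 5 rats, named P45, P52, P61, P71 and P72, were sequenced, which gives 5 left and 5 right libraries of brain tissue, and no sham-operated or unoperated rats are among the samples used here. The right side was treated as the ischemic one and the left as the paired nonischemic control from the same animal, because the study's drawing of the model places the suture in the right artery and its text, read with its tables of left over right, treats the right as ischemic. Its deficit scale, in contrast, scores the right paw and turning to the right, signs of a left lesion. Rats with a score of 2 on that scale were used. The control hemisphere belongs to an operated animal. The tissue, which the study calls cortex, was cut from the middle coronal slices of the brain, so each library mixes many cell types. The tissue label could not be checked against marker genes, because no table used here pairs the Ensembl transcript identifiers of the files with gene symbols.

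LncRNAs are transcripts longer than small RNAs and with no long open reading frame, spliced and polyadenylated much like messenger RNAs. One locus can give several isoforms by starting at different promoters, by skipping or retaining exons and by ending at different polyadenylation sites. Many lncRNAs of the brain are expressed at low levels and in few cell types, and the noncoding transcriptome, like the coding one, is known to respond to a loss of blood flow.

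Levels are given as FPKM, a fragment count scaled by the length of the transcript's exons and by the library's mapped reads, which allows transcripts of different length to be set side by side. Whether reads of an overlap belong to one isoform or another is an estimate, so each locus was described 3 times, by its transcripts, by the sum of their FPKM and by the share of each isoform in that sum. The depth of the libraries could be estimated only in relative terms, at 63.7% to 100% of the deepest library on the left and 60.4% to 80.6% on the right. In 4 of 5 rats the shallower library was the right one, with a mean log2 difference of -0.29 (exact permutation test by sign flips over rats, two-sided, p = 0.125, and 5 rats cannot reach 0.05). The left library of rat P61 stood apart. Of the 74 transcripts of the whole table whose mean log2 rise on the right was 3 or more over the other 4 rats, 73.0% had their highest left value in P61, against 4.82% to 21.2% for the same count in the other rats. Counts of calls and called changes are therefore given with and without P61. In bulk tissue, fewer cells of a type and less RNA per cell cannot be told apart.

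The loci were spread over 21 chromosomes of the rn5 genome, 122 on the plus and 105 on the minus strand. Most were small: 113 held 2 transcripts, 54 held 3, 35 held 4 and 25 held 5. The median locus spanned 14124 bases, with a range from 926 to 397110. The median transcript was 1767 bases long after splicing, and 338 of the 653 (51.8%) had just 2 exons, against 81.0% of the transcripts alone in their locus and 26.3% of those in loci of 6 or more. Isoforms of one locus seldom began or ended at the same base. Positions were compared exactly, so starts or ends a few bases apart count as different and need not be separate promoters or polyadenylation sites. Transcripts of 208 loci had several starts and several ends, 9 loci had 1 start and 13 had 1 end. Of the 735 pairs of isoforms that these loci contain, 356 shared an intron, 35 a start and 63 an end, and 33 had no exonic base in common. An intron was shared by at least a pair of isoforms in 132 loci and by all isoforms in 77, while 95 loci had no shared intron. In the median locus 31.4% of the exonic bases were in every isoform and 44.6% were in 1 isoform. Had loci been joined by overlapping exons in place of spans, 2 of the 227 would have split. In 3 loci, those of TCONS_00001004, TCONS_00059726 and TCONS_00100209, the span overlapped an assembled lncRNA locus on the opposite strand. Whether the libraries kept strand is not given in the sources used here, so reads of the 2 strands may not be separable there.

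Most of these transcripts were of low level. A locus sum cannot lie below any of its transcripts, so the higher levels of the sums, and how many reach a given level, follow in part from the definition. The median transcript had a mean of 0.683 FPKM over the 10 libraries, between 1.33 for transcripts alone in their locus and 0.297 for those in loci of 6 or more. By number of isoforms, the median fell from 1.01 FPKM in loci of 2 to 0.806, 0.508 and 0.405 in loci of 3, 4 and 5. The locus sums did not follow that order, with medians of 2.27, 2.85, 2.38 and 2.25 FPKM. Over all 227 loci the median sum was 2.43 FPKM and the range 0.665 to 154, with 204 loci at 1 FPKM or more and 22 at 10 or more. Of the transcripts, 233 reached 1 FPKM and 15 reached 10. A level of at least 0.1 FPKM in all 10 libraries was met by 222 of 227 sums and by 312 of 653 transcripts. Values below 0.001 FPKM made up 16.4% of the transcript values, against 0.754% for transcripts alone and 35.1% in loci of 6 or more. In 142 transcripts (21.7%) the level was below 0.001 FPKM in one library and at least 1 FPKM in another, which occurred in 3.63% of the transcripts alone in their locus. All transcripts together gave 1201 ± 43.8 FPKM on the left (SD, n = 5) and 1106 ± 115 on the right. The total was lower on the right in 4 rats and higher in P71, and the mean difference was -94.7 FPKM (SD 107). The summed FPKM of all listed transcripts was also lower on the right, in every rat except P72. As a share of all assembled lncRNA FPKM, these transcripts were higher on the right in P52, P61 and P71 and lower in P45 and P72. That share ran from 18.6% in P72 to 24.6% in P71, both on the right.

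A few loci carried much of the summed FPKM of these transcripts, and the 2 loci with the highest sums held 18.6% of it. The highest was the locus of TCONS_00115546 on chromosome X (107512688 to 107513811, plus strand), with short isoforms of 280 and 290 bases. On the left, its sum was 233, 162, 133, 159 and 208 FPKM in P45, P52, P61, P71 and P72, the order used for all lists of 5 values below. On the right it was 107, 107, 153, 137 and 141 FPKM. The sides overlapped, with the right lower in 4 rats and higher in P61, and the log2 change of -0.46 (SE 0.18) had an adjusted p of 0.158 in limma (-0.62 and 0.117 without P61). The isoform TCONS_00115546 held between 64.5% and 79.3% of the sum in every library. The second was the locus of TCONS_00108853 on chromosome 9 (45158284 to 45165471, plus strand), whose isoforms share an end, an intron and 91.7% of their exonic bases. Its sum was 62.6 ± 9.57 FPKM on the left and 59.8 ± 16.4 on the right (SD, n = 5 each), higher on the right in 2 rats. The isoforms were close to even, the leading share running from 49.3% to 65.3%.

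The next loci by level were TCONS_00024821 on chromosome 11 (66400882 to 66707164, minus strand), TCONS_00016492 on chromosome 10 (5892635 to 5893827, minus strand) and TCONS_00034504 on chromosome 13 (83747587 to 83752117, plus strand). TCONS_00024821 is a spliced transcript of 730 bases beside an isoform of 17084 bases, TCONS_00024820, and only 2.41% of the exonic bases of the locus lie in both. Its sum was 40.8 ± 6.39 FPKM on the left and 33.3 ± 7.77 on the right, with the short isoform at 86.6% to 94.1% in all libraries. The sum of TCONS_00016492 was 37.3 ± 6.75 FPKM on the left. On the right it was 26.7, 24.9, 33.0, 73.6 and 26.0 FPKM, so a single library, P71, lay above all others. TCONS_00034504 was the one among the 5 highest loci whose sides did not overlap. On the left, TCONS_00034504 and its isoforms summed to 22.2, 24.4, 33.0, 31.8 and 31.9 FPKM. On the right they summed to 40.9, 41.8, 39.4, 33.4 and 37.9 FPKM. The sum was higher on the right in 5 of 5 rats, with a log2 change of 0.44 (SE 0.14), and missed the threshold (adjusted p = 0.0973 in limma, 0.183 without P61).

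The division of a locus between its isoforms varied between libraries. The leading isoform, the one with the highest mean, held a median of 60.3% of the locus mean. By size the median was 69.3% in loci of 2, 56.4% in loci of 3, 45.2% in loci of 4 and 37.4% in loci of 5. An even division would give 50%, 33.3%, 25% and 20%, and an isoform picked for its highest mean cannot lie below that. The share of that isoform ranged over the 10 libraries by a median of 44.9 percentage points. The isoform with the highest level was the same in all 10 libraries in 63 of 227 loci (27.8%), and 3 or more isoforms took the lead in some library in 59 loci. One leader throughout was found in 40 of 113 loci of 2 isoforms, 17 of 54 loci of 3, 5 of 35 loci of 4 and 1 of 25 loci of 5. It was found in 23 of the 132 loci with a shared intron (17.4%) and in 40 of the 95 without one (42.1%). Within loci of 2 isoforms the counts were 10 of 46 (21.7%) and 30 of 67 (44.8%).

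At the steady end were 3 loci of 2 isoforms without a shared intron. TCONS_00025672 (chromosome 11, 72568223 to 72637823, plus strand) held almost all of its locus in each library, its shorter isoform TCONS_00026087 taking at most 0.00232%. TCONS_00012306 (chromosome 1, 284962078 to 284989411, plus strand) held at least 97.1%, with a sum of 22.0 ± 2.72 FPKM on the left and 21.0 ± 1.24 on the right. TCONS_00023815 (chromosome 10, 93163149 to 93173425, plus strand), of 10002 bases, held at least 96.8%.

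At the other end were 3 loci of 2 isoforms in which the share ran from 0% or nearly so to 100%. In the locus of TCONS_00027485 (chromosome 12, 23909846 to 23912239, plus strand) each library gave the whole sum to one isoform and listed the other at 0. TCONS_00027485 took it in P45 and P61 on the left and in P45, P71 and P72 on the right, and TCONS_00028868 took it in the other 5 libraries. The sum itself was above 0 throughout, at 2.79, 1.43, 3.13, 0.592 and 0.716 FPKM on the left and 4.43, 2.86, 1.71, 3.79 and 3.87 on the right. In the locus of TCONS_00094424 (chromosome 6, 4861629 to 4874869, plus strand), the leading isoform held 66.0% to 88.8% on the left. On the right it ranged from 0% in P71 to 100% in P61, the libraries with the lowest sums, 0.0671 and 0.338 FPKM. The locus of TCONS_00059726 (chromosome 2, 167737981 to 167795641, plus strand) is one of the 3 with an antisense partner. Its leading share was close to 100% in P45 on both sides and in P71 on the right, and near 0% in P61 on the right, where the sum was 0.114 FPKM.

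**Figure D1:**
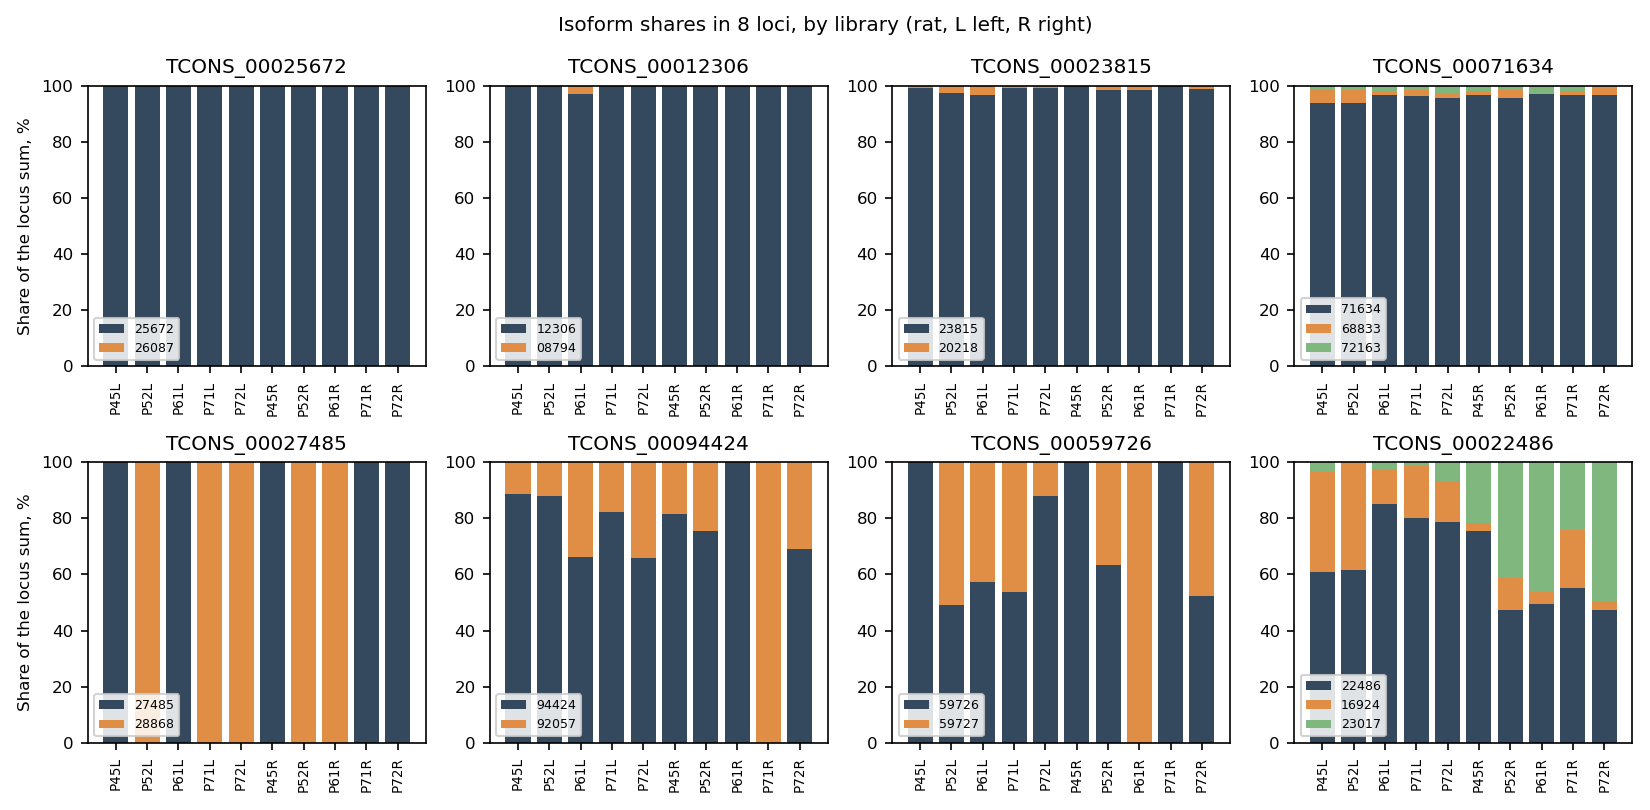
Share of each isoform in the locus sum (y axis, percent) in each library (x axis, rat and side) for 8 loci, with isoforms labelled by the last 5 digits of their names. The top panels show steady loci, with TCONS_00071634 between 93.7% and 97.2%, and the bottom panels show changing ones, where in the locus of TCONS_00022486 the third isoform, TCONS_00023017, takes more of the sum in every right library than in any left one.

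The change between the sides differed more between rats for the transcripts than for the locus sums. The change is the log2 of FPKM plus 0.1 on the right minus the same on the left of one rat, and its SD over the 5 rats had a median of 1.03 for the 609 member transcripts with a mean of at least 0.1 FPKM. For the 227 locus sums the median SD was 0.58, against 0.61 for the transcripts alone in their locus and 0.40 for Ensembl transcripts. In loci of 6 or more it was 1.47 for the transcripts and 0.68 for the sums. The SD of the sum was below that of the leading transcript in 167 of 227 loci and below that of every transcript in 109. It also fell with level, from 0.65 for sums under 2 FPKM to 0.45 for those of 5 FPKM or more. All these SDs are descriptions over features that share libraries and carry no test.

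**Figure D2:**
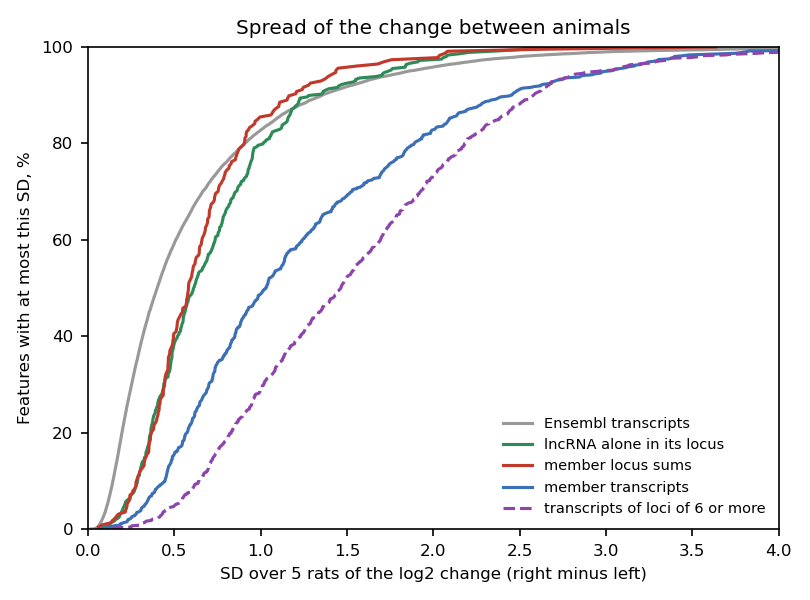
Percent of features (y axis) whose SD over 5 rats of the log2 change, right minus left, is at most the value on the x axis, for 5 kinds of feature. The curve of the member locus sums lies near that of lncRNAs alone in their locus, with medians of 0.58 and 0.61, and left of the member transcripts, with a median of 1.03.

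Few of the transcripts passed the threshold for a difference between the hemispheres, which does not show that the rest were unchanged. Of the 609 tested, 5 passed an adjusted p of 0.05 in limma with the rat as a block (0.821%), 3 higher and 2 lower on the right, where 7.71% of all 20936 transcripts tested passed. The 44 other members had a mean below 0.1 FPKM and were not tested. At an unadjusted p under 0.05 there were 70 (24 higher and 46 lower), or 11.5%, against 26.6% of all. The FPKM of the sides did not overlap in 11 of the 609, against 10% of all. Of the transcripts alone in their locus 14 of 358 were called, and of those in loci of 6 or more 6 of 729. The median change of the 609 was -0.12, against -0.01 over all transcripts tested. It was -0.088 for the transcripts alone in their locus and -0.29 for those in loci of 6 or more. Without P61 none of the 609 was called, although 65 had an unadjusted p under 0.05. Without P45 or P52 there was 1, without P71 4 and without P72 11. With the relative depth as a covariate none was called, with 55 at an unadjusted p under 0.05, and no transcript of the whole table was called either.

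TCONS_00023017 had the largest rise. It is an isoform of 2 exons and 1217 bases in the locus of TCONS_00022486 on chromosome 10 (47455347 to 47465203, minus strand). On the left, TCONS_00023017 measured 0.0909, 0, 0.0665, 0.0430 and 0.172 FPKM. In the right hemispheres it reached 0.856, 3.42, 3.30, 0.659 and 4.40 FPKM, so every right library lay above all left ones. The log2 change was 3.65 (SE 0.50, adjusted p = 0.0115 in limma), and without P61 the change was 3.48 with an adjusted p of 0.0555. With left values this low the size depends on the pseudocount, at 5.04 with 0.01 and 1.56 with 1 (called with both), and the call was lost without moderation of the variance (adjusted p = 0.0628) and with the depth covariate (0.136). The other isoforms did not change in the same way. TCONS_00022486, which begins at the 5′ end of the locus, went from 2.09 ± 0.310 to 3.24 ± 1.07 FPKM (SD, n = 5, log2 change 0.54, adjusted p = 0.268). TCONS_00016924, near the 5′ end too, was at or below 1.40 FPKM on both sides and lower on the right in 4 rats. TCONS_00023017 starts 6.59 kb downstream, in the last exon of TCONS_00022486, and its second exon, which runs to the 3′ end of the locus, is in no other isoform. Its share of the locus sum was 3.43%, 0%, 2.61%, 1.40% and 6.78% on the left. The share was 21.5%, 41.3%, 46.1%, 24.0% and 49.4% on the right, again without overlap. The log2 ratio to the rest of the locus differed by 3.32 (SE 0.48), the lowest p of all shares tested, and did not pass after adjustment (adjusted p = 0.487 in limma). The sum of the locus changed by 0.96 (SE 0.29), higher on the right in 4 of 5 rats, and was not called (adjusted p = 0.0901).

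TCONS_00076164 rose both as a transcript and as a locus. Its locus on chromosome 4 (7826742 to 7831009, minus strand) has 2 isoforms with 85.6% of their exonic bases and 2 introns in common, and the other isoform, TCONS_00080661, adds an exon at the 5′ end. On the left, the locus of TCONS_00076164 summed to 2.32, 3.06, 3.62, 2.46 and 4.17 FPKM. The right libraries gave 10.6, 7.94, 9.16, 5.82 and 8.24 FPKM, every value above the left ones. The mean went from 3.12 ± 0.780 to 8.35 ± 1.75 FPKM (SD, n = 5), a log2 change of 1.40 (SE 0.19, adjusted p = 0.0108 in limma), between 0.97 and 2.15 in single rats. It was the one sum that stayed below 0.05 whichever rat was left out, with adjusted p between 0.0186 and 0.0491 (0.0491 without P61). It did not stay below with a depth covariate (change 1.08, adjusted p = 0.265) or without moderation of the variance (0.0548). The transcript TCONS_00076164 alone went from 2.59 ± 0.566 to 6.75 ± 2.61 FPKM with overlapping sides (log2 change 1.28, SE 0.23, adjusted p = 0.0261, 0.104 without P61), and its call was also lost without the filter (0.0545) or the moderation (0.0924). TCONS_00080661 measured from below 0.001 to 4.66 FPKM and took 58.7% of the sum in P52 on the right but under 0.001% in P71 on the right and in P45 on the left.

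TCONS_00071634 had the smallest rise and the most even one. It lies on chromosome 3 (162946976 to 162956967, minus strand) with TCONS_00068833, which has a further exon of its own, and TCONS_00072163, which begins upstream. On the left, TCONS_00071634 measured 20.1, 23.1, 22.2, 21.1 and 19.6 FPKM. The right values were 25.9, 28.5, 28.3, 28.7 and 27.7 FPKM, with no overlap, and the change was between 0.30 and 0.50 on the log2 scale in each rat. The mean change was 0.39 (SE 0.07, adjusted p = 0.0268 in limma), and that of the locus sum, from 22.3 ± 1.54 to 28.8 ± 1.21 FPKM, was 0.37 (SE 0.07, adjusted p = 0.0298). The transcript held its call only when P72 was left out. The sum lost its call whichever rat was left out, with adjusted p between 0.0536 and 0.114 in limma. Without P61 the adjusted p was 0.0941 for the transcript and 0.102 for the sum, at changes of 0.40 and 0.38. Without trend neither was called (0.0727 and 0.0728). The minor isoforms had means of 0.674 and 0.384 FPKM on the left and 0.445 and 0.524 on the right, and neither was called.

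TCONS_00069225 fell. Its locus on chromosome 3 (92118995 to 92396136, plus strand) spans 277142 bases, and its 2 longer isoforms run from first exons near the 5′ end to exons that begin 273 kb from it. On the left, TCONS_00069225 measured 2.41, 3.44, 2.10, 3.36 and 2.43 FPKM. The right values were 0.906, 1.52, 0.873, 1.81 and 1.31 FPKM, all below the left values. The change was -1.07 on the log2 scale (SE 0.18, adjusted p = 0.0217 in limma), and -1.04 without P61 with an adjusted p of 0.0865. TCONS_00073759, which leads the locus and shares a first splice donor with it, was also lower on the right in 5 of 5 rats, at 4.76 ± 1.32 and 3.05 ± 1.03 FPKM, and was not called (change -0.66, adjusted p = 0.10). The sum of the locus, 8.35 ± 1.99 FPKM on the left and 4.98 ± 1.77 on the right, lay at the threshold (change -0.78, SE 0.18, adjusted p = 0.0504). Of that sum, TCONS_00069225 held 29.1% to 39.5% on the left and 22.6% to 30.5% on the right.

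TCONS_00113701 was the second transcript that fell, in a locus of 5 isoforms on chromosome X (64568461 to 64573078, plus strand) with no exonic base common to all. On the left, TCONS_00113701 measured 0.70, 0.450, 1.03, 0.465 and 0.731 FPKM. Its right values were 0.396 in P61, 0.426 in P72 and less than 0.001 FPKM in the other 3 rats, below the left range throughout. The change was -1.96 (SE 0.44, adjusted p = 0.0467 in limma), and -2.15 without P61 with an adjusted p of 0.109. The size depended on the pseudocount here too, at -3.85 with 0.01, where the call was lost (adjusted p = 0.0726), and -0.53 with 1. The depth covariate gave -1.25 (adjusted p = 0.504), and the call was also lost without the filter, the block, the trend or the moderation and with TPM scaling (0.0519 to 0.106). Its sum showed no such fall, at 1.53 ± 0.522 FPKM on the left and 1.63 ± 1.08 on the right (change -0.05, adjusted p = 0.929). TCONS_00115521, which has the same last intron, was higher on the right in 4 of 5 rats, at 0.189 ± 0.222 and 0.546 ± 0.539 FPKM, and was not called (change 1.01, adjusted p = 0.234).

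**Figure D3:**
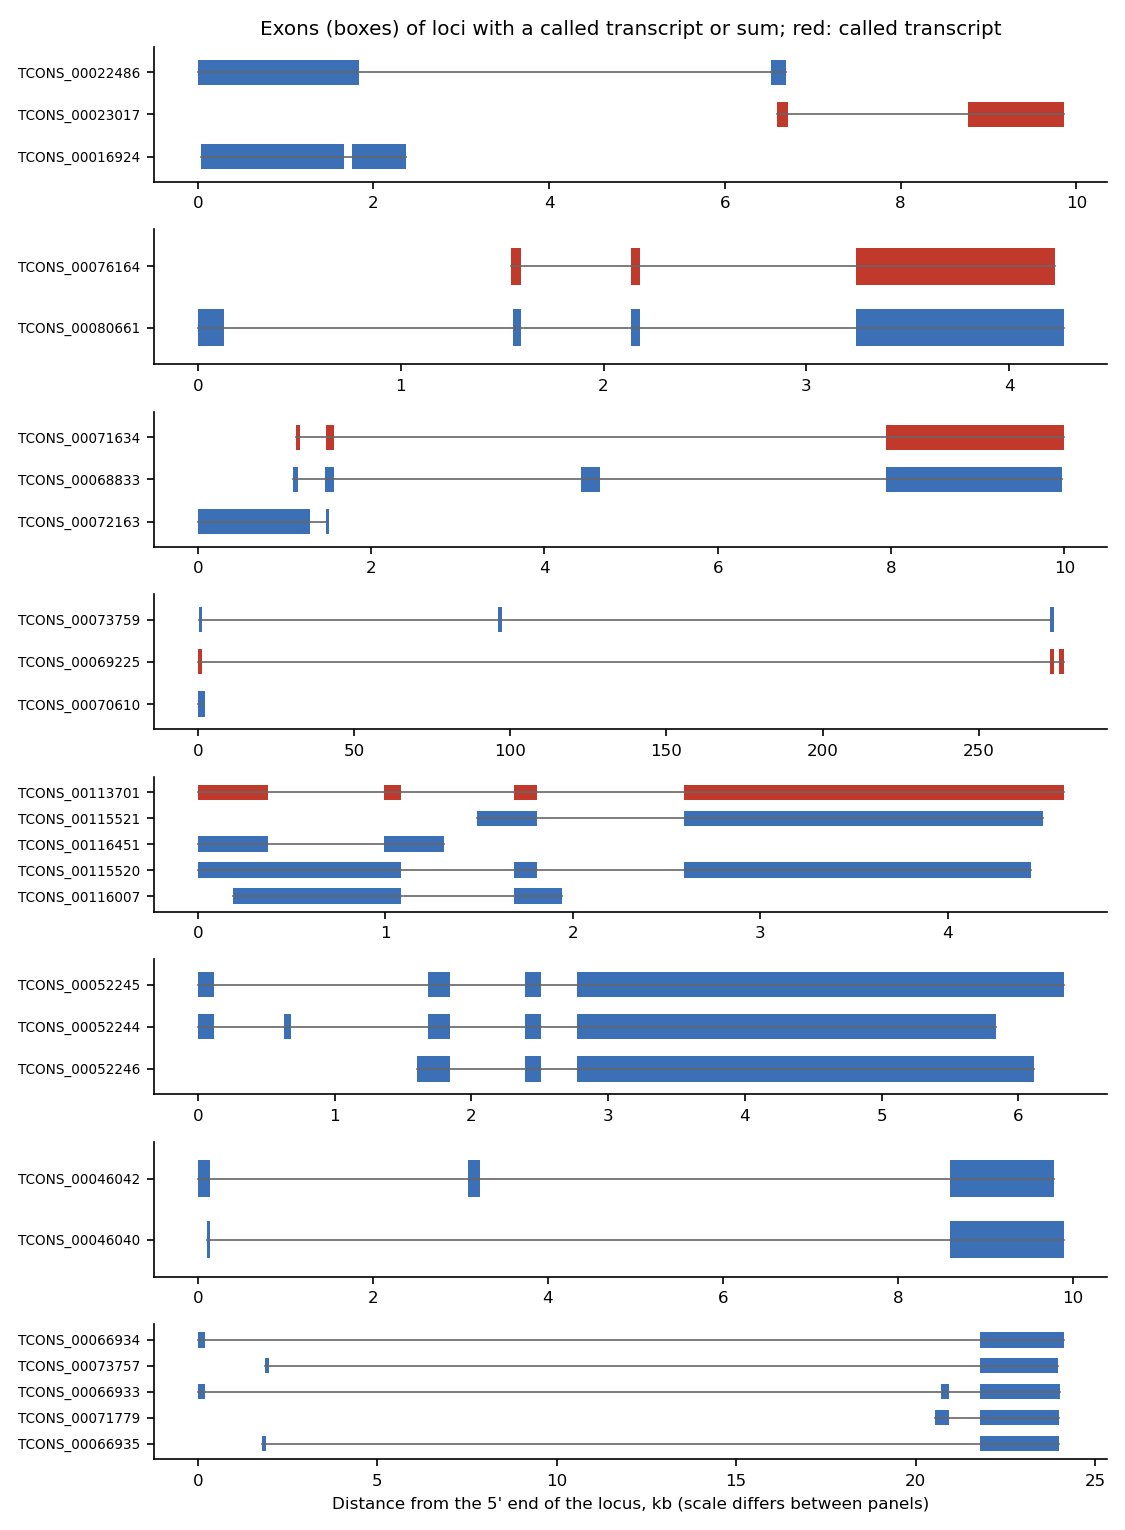
Exons (boxes) and introns (lines) of the isoforms in the 8 loci with a called transcript or sum, with the distance from the 5′ end of the locus in kb on the x axis and a scale that differs between panels. Red marks the 5 called transcripts, and in the top panel TCONS_00023017 overlaps TCONS_00022486 only around 6.59 kb to 6.70 kb.

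The locus sums gave as many calls as the transcripts, mostly at other loci. Of the 227 sums 5 passed (2.20%), 2 higher and 3 lower on the right, against 8.4% of the 19916 sums and Ensembl transcripts tested together. At an unadjusted p under 0.05 there were 46 (17 higher and 29 lower), or 20.3%, against 27.7% of all. The sides did not overlap in 14 of the 227, against 10.5% of all. Of the sums of loci of 6 or more 2 of 91 were called (2.20%), and of the lncRNAs alone in their locus 15 of 358. The median change of the 227 sums was -0.11, with 77 of 227 above 0. It was -0.088 for the lncRNAs alone in their locus and -0.41 for the sums of loci of 6 or more. By rat, the median of the 227 was -0.33 in P61, -0.20 in P72, -0.17 in P45, 0.01 in P52 and 0.11 in P71. The right library was shallower than the left by 0.65 in P45, 0.21 in P52, 0.36 in P71 and 0.29 in P72 and deeper by 0.06 in P61 on the log2 scale. Without P61 the count was 1, without P45 also 1, without P52 2, without P71 3 and without P72 7. With the depth covariate it was 0, and 21 had an unadjusted p under 0.05. The rises were those of TCONS_00076164 and TCONS_00071634 given above, and the falls were in 3 loci none of whose transcripts was called.

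**Figure D4:**
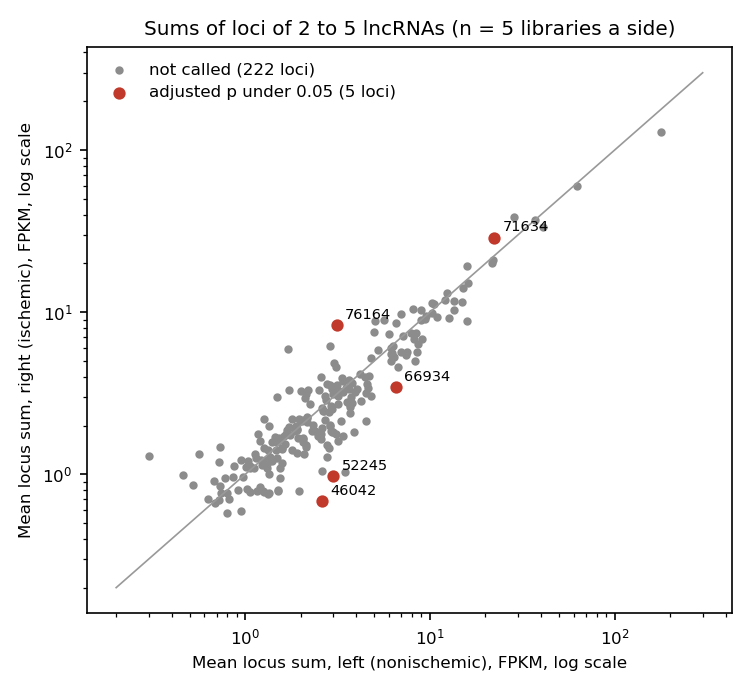
Mean locus sum on the left (x axis, FPKM, log scale) against the right (y axis, FPKM, log scale) for the 227 loci, with the line of equal levels. Red points are the 5 called sums, labelled by the last 5 digits of the locus name, and TCONS_00076164 stands above the line at 3.12 and 8.35 FPKM.

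The locus of TCONS_00052245 on chromosome 19 (33824683 to 33831013, plus strand) fell most. Its 3 isoforms share 81.8% of their exonic bases and 2 introns. On the left, TCONS_00052245 and its isoforms summed to 3.22, 3.03, 2.18, 3.27 and 3.27 FPKM. On the right they summed to 0.71, 0.534, 0.334, 1.96 and 1.34 FPKM, so the sides did not overlap. The change was -1.73 (SE 0.31, adjusted p = 0.0225 in limma), and -1.57 without P61 with an adjusted p of 0.0849. With a pseudocount of 1 the change was -1.07, and without moderation the call was lost (adjusted p = 0.0810). As single transcripts, TCONS_00052245 was lower on the right in 5 of 5 rats, from 1.51 ± 0.648 to 0.422 ± 0.621 FPKM (change -2.50, adjusted p = 0.0549, 0.166 without P61), and TCONS_00052244 and TCONS_00052246 were lower in 4 of 5. Each of the 3 led the locus in some library. TCONS_00052245 was below 0.001 FPKM in P45, P52 and P61 on the right, TCONS_00052244 in P61 on the left and P71 on the right, and TCONS_00052246 in P72 on both sides and in P61 on the right.

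The locus of TCONS_00046042 on chromosome 17 (22991401 to 23001296, plus strand) fell as a sum while its isoforms alternated. On the left, the 2 isoforms of TCONS_00046042 summed to 2.95, 1.70, 1.99, 5.04 and 1.35 FPKM. On the right they summed to 0.749, 0.666, 0.305, 0.635 and 1.08 FPKM, all below the left values, the closest pair being those of P72. The change was -1.71 (SE 0.39, adjusted p = 0.0444 in limma), and -1.54 without P61 with an adjusted p of 0.144. With a pseudocount of 1 it was -1.03 and no longer called (adjusted p = 0.0501), and the call was also lost without the filter, the trend or the moderation (0.0654 to 0.124). The isoform TCONS_00046042 held at least 99.3% of the sum in P45 on the left and in P52 and P72 on the right, and under 0.1% in P52 on the left and in P45, P61 and P71 on the right. With changes from -5.53 to 2.93 in single rats it was not called (mean change -2.17, SE 1.33, adjusted p = 0.348), and neither was TCONS_00046040 (change -0.83, adjusted p = 0.651).

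The locus of TCONS_00066934 on chromosome 3 (88405989 to 88430110, plus strand) holds 5 isoforms with a last exon in common and several first exons, and 71.2% of its exonic bases are in all 5. On the left, TCONS_00066934 and its isoforms summed to 8.13, 5.11, 5.02, 8.23 and 6.25 FPKM. On the right they summed to 3.27, 4.02, 3.14, 2.82 and 4.05 FPKM, without overlap. The change was -0.88 (SE 0.21, adjusted p = 0.0477 in limma), and no rat could be left out with the call kept (adjusted p 0.0637 to 0.177, 0.122 without P61). The depth covariate gave -0.54 (adjusted p = 0.514), and the call was also lost with a pseudocount of 1, with TPM scaling and without the filter, the trend or the moderation (0.0513 to 0.119). The leading isoform had the smallest p of the 5, at 3.82 ± 1.61 and 2.0 ± 0.844 FPKM (change -0.86, adjusted p = 0.0895), and held between 26.2% and 83.9% of the sum.

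**Figure D5:**
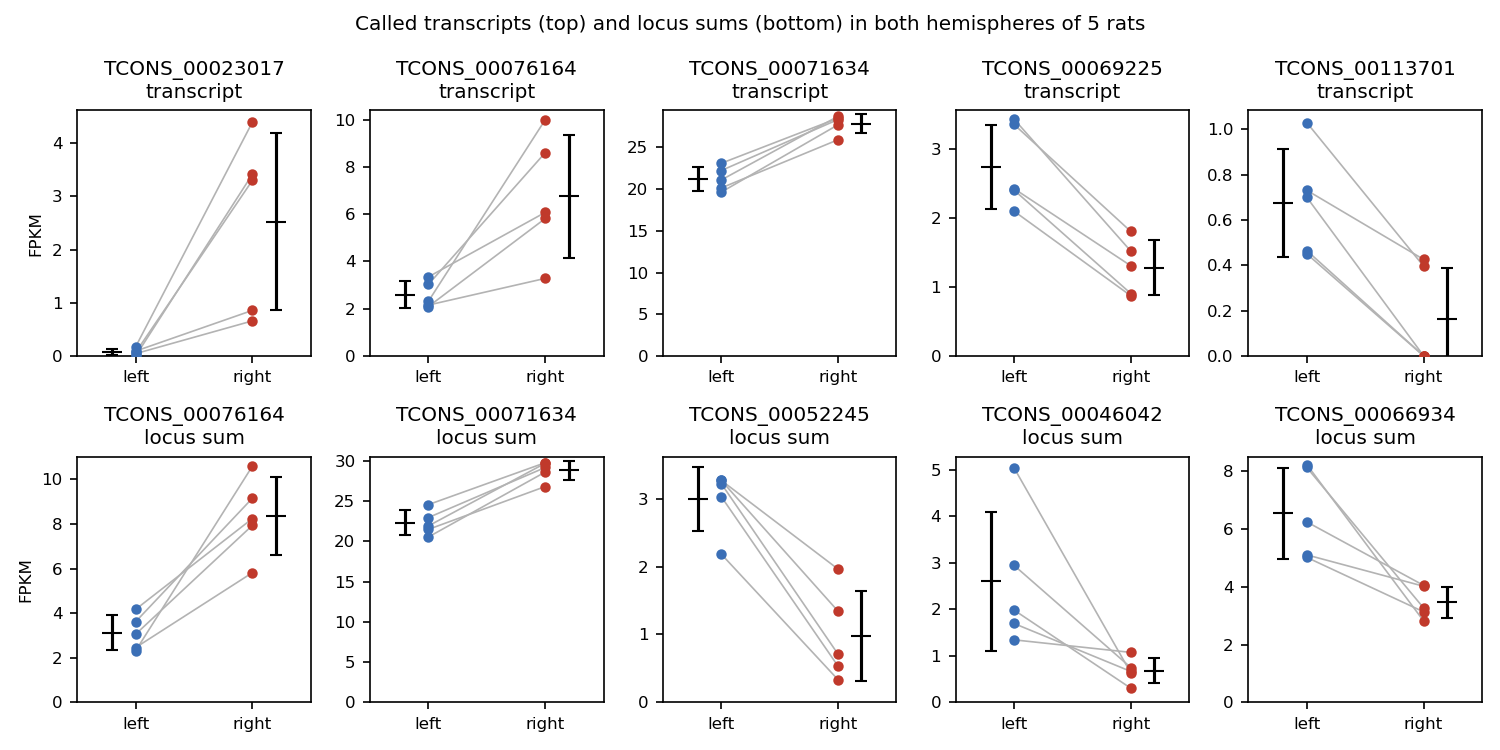
FPKM (y axis, from 0) on the left and right of each of 5 rats (points joined by grey lines) for the 5 called transcripts (top) and the 5 called locus sums (bottom), with the mean and SD beside the points. In all 10 panels every rat moves the same way, and only in the panel of the transcript TCONS_00076164 do the sides overlap.

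Among the loci with a mean sum of at least 1 FPKM that moved one way in all 5 rats, the next by size of change were not called. The sum of TCONS_00009600 on chromosome 1 (200225660 to 200244964, plus strand) was 1.57, 1.72, 1.76, 1.70 and 1.77 FPKM on the left. On the right it was 2.41, 4.36, 15.6, 5.26 and 2.09 FPKM, with P61 far above the rest (log2 change 1.35, SE 0.41, adjusted p = 0.0896 in limma). Without P61 the change was 0.92 with an adjusted p of 0.168. The sum of TCONS_00078422 on chromosome 4 (209668422 to 209686954, plus strand) was 0.732 ± 0.0741 FPKM on the left and 1.48 ± 0.399 on the right, without overlap (change 0.89, SE 0.26, adjusted p = 0.0807, 0.20 without P61). The sides nearly touched, with a highest left sum of 0.8051 FPKM and a lowest right sum of 0.8057 FPKM, in P72. The minor isoform of this locus, TCONS_00079926, held at most 35.2% on the left and 7.80% to 43.5% on the right. The sum of TCONS_00066449 on chromosome 3 (11473870 to 11477850, plus strand) was lower on the right, at 4.51 ± 1.07 and 2.13 ± 1.12 FPKM (change -1.16, SE 0.29, adjusted p = 0.0558, 0.162 without P61). Its isoforms of 646 and 1850 bases share only 4% of their exonic bases, yet they divided the sum almost evenly, between 47.2% and 54.9% for TCONS_00066449 in all libraries except P71 on the right, at 75.7%.

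The study's tables of PCR primers and of its top changed lncRNAs hold 6 of the 653 transcripts. Since these were chosen on these samples, their direction is not independent evidence here. All of them except TCONS_00069225 are listed with PCR primers. The study reports PCR of its newly assembled changed lncRNAs in another cohort of paired brains, and those measurements are not used here. TCONS_00069225 and TCONS_00113701 were called, as given above, and TCONS_00052245 missed the threshold. TCONS_00012358 on chromosome 1 (52788421 to 52794934, minus strand) measured 0.110, 0.403, 0.182, 0.139 and 0.468 FPKM on the left and 0.922, 0.775, 0.635, 1.42 and 0.515 on the right. The sides did not overlap, and the change of 1.45 (SE 0.44) had an adjusted p of 0.0967 in limma (0.216 without P61). TCONS_00039914 on chromosome 15 (locus of TCONS_00040463, 108351694 to 108356933, minus strand) was lower on the right in 4 of 5 rats, at 0.579 ± 0.251 and 0.152 ± 0.232 FPKM (change -1.79, SE 0.60, adjusted p = 0.120, 0.291 without P61). TCONS_00056796 on chromosome 2 (locus of TCONS_00056797, 95990222 to 96032483, minus strand) was lower in 5 of 5 rats, at 0.618 ± 0.323 and 0.149 ± 0.208 FPKM (change -1.76, SE 0.51, adjusted p = 0.0858, 0.201 without P61).

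No change in the division of a locus between its isoforms was called. Of the 653 shares 0 passed in limma (0.0% of the 1566 shares of all loci with at least 2 transcripts), and 33 had an unadjusted p under 0.05 (16 higher and 17 lower), or 5.05%, against 6.26% of all. In loci of 2 isoforms both shares carry the same ratio with opposite sign. The shares of the sides did not overlap for 4 of the 653 transcripts. The same count over the shares of all loci is not given here, so this one has no reference and is not read as a result. The 4 are TCONS_00023017 and, named here after their values were seen, TCONS_00031165, TCONS_00004878 and TCONS_00018345. TCONS_00031165 held 41.3 ± 8.95% of its locus on the left and 21.7 ± 6.73% on the right (SD, n = 5, adjusted p = 0.723). The leading isoform was a different one on the 2 sides of one rat in 69 to 85 of the 227 loci, and a different one between the left libraries of 2 rats in 59 to 79 (median 68 over 10 pairs). It differed between the sides in all 5 rats in 13 loci, and in 0 loci did one isoform lead all left libraries and another all right ones. The median share of whichever isoform led was 64.8 ± 1.67% on the left and 66.7 ± 1.74% on the right (SD, n = 5). The difference of 1.92 percentage points (SD 2.36) was positive in 4 of 5 rats, all except P61, and smaller than its SD over the rats. Without P61 it was 2.80 points (SD 1.49).

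Isoforms of one locus had mean changes of opposite sign in 138 of 227 loci. These were 46 of 113 with 2 isoforms (40.7%), 38 of 54 with 3 (70.4%), 33 of 35 with 4 (94.3%) and 21 of 25 with 5 (84%). Signs drawn at random would also be mixed in many loci, and in more of them the more isoforms a locus has. The number expected from random signs is not given here, so these counts have no reference and are not read as a result. The isoforms compared include some too low to be tested, such as TCONS_00104980 at a mean of 0.0871 FPKM. A rise of at least 1 on the log2 scale in one isoform beside a fall of at least 1 in another occurred in 7 loci. One of the 7 is that of TCONS_00113701, and another, named here after its values were seen, is that of TCONS_00091681. There TCONS_00091681 changed by 1.12 and TCONS_00093835 by -2.02, at means of 2.96 and 2.41 FPKM. Of the 7 loci, that of TCONS_00113701 alone held a called transcript.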

How the data were processed

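The data were RNA sequencing libraries, 2 for each of 5 rats. The authors aligned the reads to rn5 (TopHat), built transcripts with Cufflinks (bias and multi-read correction, Ensembl annotation), kept those of at least 2 exons found in at least 5 samples, and deposited FPKM per transcript and library, without pooling replicates. They also deposited the positions and exons of the assembled lncRNAs on rn5. FPKM are not counts, so no count model was used and no read-based interval is given. Values of the authors' own paired comparison of the sides were not used, and each replicate is a separate rat.

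From the deposited FPKM, log2(FPKM + 0.1) was fitted for all 20936 transcripts with a mean of at least 0.1, with limma 3.58.1 in R 4.3.3 (eBayes with trend), the rat as a block, and Benjamini-Hochberg adjustment over all of them. On this scale the change of a low transcript is understated. The same fit was run with assembled lncRNAs summed per locus, and, without trend, on log2 ratios of each isoform to the rest of its locus (both plus 0.1, mean locus sum of at least 0.5). A call is an adjusted p under 0.05. The relative depth of a pair of libraries was read from the commonest ratio of their low values, and pairs contradicted each other by at most 0.14 on the log2 scale. Sign flips used all 32 patterns. Scripts ran in Python 3.11.15 with pandas 2.3.3, numpy 2.4.6, matplotlib 3.10.9 and scipy 1.17.1, and the fit was tested on simulated data. The sides are paired because they come from one rat, by the number in the labels. The correlation of their deviations from the side means was between -0.13 and 0.18, and -0.0082 on average between rats.

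Members, lists and tests were chosen with earlier results of these data known. Transcripts and loci named are those called and the 5 highest sums. Also named are the 3 rises and 3 falls largest among sums of at least 1 FPKM moving one way in 5 rats. Further ones are the members in the study's tables of PCR primers and top changed lncRNAs. The last are the 3 loci with the widest and the 3 with the narrowest leading share. No p is given for a score over the members. Alternatives were other pseudocounts, filters, scalings and locus definitions, no block, no trend, no moderation, a depth covariate and leaving out each rat. No sequence is printed, since no rn5 genome was used here.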

Additional observations from a re-analysis of the deposited data

Results flagged for a closer look

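In 5 of the 56 groups of 5 libraries examined for the named members, one library lay farther from the rest than Dixon's critical value of 0.71 for 5 samples. A rate of 1 in 20 groups would give 2.8, but that rate holds for independent groups of normally distributed values. Some named members were chosen for extreme values, and some are transcripts of loci named too, so 2.8 is not a valid reference here. For the sum of TCONS_00016492, P71 on the right had 73.6 FPKM against 24.9 to 33.0 in the other right libraries (gap over range 0.834). For TCONS_00023815, P71 on the right had 3.56 FPKM against 2.19 to 2.44 (0.822). For TCONS_00052245, a called sum, P61 on the left had 2.18 FPKM against 3.03 to 3.27 in the other left libraries (0.780). For TCONS_00009600, P61 on the right had 15.6 FPKM against 2.09 to 5.26 (0.766). For TCONS_00078422, P72 on the right had 0.806 FPKM against 1.51 to 1.79 (0.719).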

How the results depend on the processing

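Against 5 called transcripts and 5 called sums, no filter on low values gave 3 and 3, no replicate block (the unpaired fit) 10 and 11, no moderation 2 and 1, and the depth covariate 0 and 0, where no feature of the whole tables was called. The cause of these differences was not tested. Leaving out each rat gave 0 to 11 transcripts and 1 to 7 sums. The remaining settings gave 4 to 6 transcripts and 4 to 7 sums, and shares gave 0 calls in limma in every setting (21 to 40 at an unadjusted p under 0.05). The difference in the leading share kept its sign, at 1.28 to 2.80 points when a rat was left out. Over all transcripts 71.6% of the calls were higher on the right, 81.7% with TPM scaling (81.0% against 70.9% with sums) and 87.2% without trend. The sums of TCONS_00115546 and TCONS_00108853 changed sign with the depth covariate, to 0.025 and 0.18. Without one rat, 4 sums that were not called crossed 0, those of TCONS_00108853 (-0.28 to 0.028, above 0 without P45 or, at 0.0015, without P52), TCONS_00016492 (-0.44 to 0.055, above 0 without P52), TCONS_00025672 (-0.18 to 0.019, without P61) and TCONS_00012306 (-0.12 to 0.017, without P52). For the 28 named changes, 334 values under the alternatives kept direction and side of the threshold, 66 lost a call, 8 gained one and 7 changed sign. Only the 5 called transcripts and 5 called sums among the 28 had a call to lose, so all 66 losses fell on these. FPKM without counts limit what low isoforms can show.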
